A study of Rattus norvegicus with 35 samples.

Results

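The genes described here are pleiotrophin (Ptn), midkine (Mdk) and 4 genes for the proteins that bind them at the cell surface, Ptprz1, Alk, Sdc3 and Ncl. Pleiotrophin and midkine form a small family of secreted growth factors that bind the sulphated sugar chains of proteoglycans and act on neurite outgrowth, synapses and glial cells. Ptprz1 is a receptor tyrosine phosphatase that carries chondroitin sulphate chains, is made by astrocytes and oligodendrocyte precursors, and loses phosphatase activity when pleiotrophin binds. Alk is a receptor tyrosine kinase for which both factors have been described as ligands. Sdc3 (syndecan-3) is a heparan sulphate proteoglycan of neurons that binds pleiotrophin, and Ncl (nucleolin) is an RNA-binding protein of the nucleolus that also reaches the cell surface and binds both factors there.

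The 6 genes were taken by name from a count table of 15059 genes, and all 6 were present and passed the filter on low counts. They were chosen by the measured level of Ptn, which was higher under exemestane than under estradiol in these same libraries, so values for that pair are given below as a description with no test. RNA of the hippocampus was sequenced from female Sprague Dawley rats in 7 groups of 5 libraries. The sham group had surgery without ovariectomy at 6 months of age, and the other 6 groups were ovariectomised at that age. After a washout of 2 weeks the ovariectomised rats received daily intraperitoneal injections of estradiol (0.16 mg per kg), tamoxifen (3.23 mg per kg), raloxifene (9.68 mg per kg), exemestane (0.16 mg per kg), anastrozole (4.03 mg per kg) or vehicle, and tissue was taken at 7 days. Tamoxifen and raloxifene are selective estrogen receptor modulators, exemestane is a steroidal inhibitor of aromatase and anastrozole a non-steroidal one. The labels do not say what the vehicle was or whether sham rats were injected, they give exemestane the same dose as estradiol, and the design text speaks of 8 groups, of which 7 are analysed here. Levels are given as CPM, the counts of a gene per M counts of its library after TMM scaling, a correction for library composition. They are compared within a gene and never between genes, since the values are not per length.

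Promoter sequences from RefSeq (GRCr8) were matched for 4 of the 6 genes, and the 250 bases before each annotated start are shown as a description. A relation between the motifs and the levels of these genes was not tested. On the minus strand, Ptn lies at chr4:66342333-66342582 and Ncl at chr9:94456084-94456333. On the plus strand, Alk lies at chr6:28631227-28631476 and Sdc3 at chr5:148249542-148249791. Capitals mark the AP-1 motif TGANTCA in Ptn and the estrogen receptor core motif GGTCA in Ncl, both searched on either strand. Promoters of Mdk and Ptprz1 are not shown.
Ptn: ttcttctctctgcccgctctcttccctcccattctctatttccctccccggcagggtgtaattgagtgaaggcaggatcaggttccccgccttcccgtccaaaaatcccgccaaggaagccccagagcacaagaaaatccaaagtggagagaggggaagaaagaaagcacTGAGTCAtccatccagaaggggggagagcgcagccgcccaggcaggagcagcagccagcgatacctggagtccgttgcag
Ncl: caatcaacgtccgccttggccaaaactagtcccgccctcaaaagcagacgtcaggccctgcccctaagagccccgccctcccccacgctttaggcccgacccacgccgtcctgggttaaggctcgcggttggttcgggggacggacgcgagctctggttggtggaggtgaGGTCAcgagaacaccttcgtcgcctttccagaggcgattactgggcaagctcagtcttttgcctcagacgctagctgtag
Sdc3: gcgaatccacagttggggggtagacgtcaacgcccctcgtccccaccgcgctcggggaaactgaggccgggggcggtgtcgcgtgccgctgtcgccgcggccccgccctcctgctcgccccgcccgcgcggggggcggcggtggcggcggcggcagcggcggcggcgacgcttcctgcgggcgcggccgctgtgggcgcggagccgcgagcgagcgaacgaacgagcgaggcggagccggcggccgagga
Alk: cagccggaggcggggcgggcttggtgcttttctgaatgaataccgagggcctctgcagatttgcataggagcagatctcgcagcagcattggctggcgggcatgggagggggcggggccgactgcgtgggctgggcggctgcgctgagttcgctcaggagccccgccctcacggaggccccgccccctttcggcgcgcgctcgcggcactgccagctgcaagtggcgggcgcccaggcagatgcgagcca

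The AP-1 motif of Ptn begins 80 bases before the start, and 6.34% of 33469 RefSeq rat promoters of the same length hold that motif. The core motif of Ncl also begins 80 bases before its start, and 35.4% of promoters hold it. The full palindrome GGTCANNNTGACC, which contains the core motif, is in none of the 4 windows and in 0.0239% of all promoters. GC boxes (GGGCGG) number 1 in Ptn, 2 in Ncl, 4 in Sdc3 and 5 in Alk, and 30.5% of promoters hold at least 1. GC content is 57.6% in Ptn, 62.0% in Ncl, 80.0% in Sdc3 and 70.4% in Alk, against a median of 51.2% over all promoters. Each match is a match of letters in these windows only.

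Each library held between 5.58 M and 12.09 M counts, 8.01 M at the median. Markers of hippocampal neurons were present in every library, with 11 of the 12 listed markers in the table and none of them at 0. The ratio of the 2 deposited tables split the libraries into 15 of class B and 20 of class A, a split that the labels do not name and that was made after the data were seen. Class B held 0 of 5 sham libraries, 0 of 5 estradiol, 3 of 5 tamoxifen, 5 of 5 raloxifene, 4 of 5 exemestane, 2 of 5 anastrozole and 1 of 5 vehicle libraries, so that class and group are in part confounded. Ttr, a defining gene of choroid plexus, stood above 100 CPM in 15 libraries spread over all 7 groups. Sham replicate 1 had 377 CPM summed over the thalamus and habenula markers, against 94.6 to 129 CPM in the other 34 libraries, and the lowest summed level of hippocampal neuron markers (1954 CPM). The main results are therefore given both as designed and with class as a term. In bulk tissue, fewer cells of a type and less RNA per cell cannot be told apart.

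Ptn was higher under raloxifene and under exemestane than under vehicle in the fit as designed, by about 1.48-fold and 1.42-fold, and its level was highest in the libraries of class B in every group that held both classes. Single raloxifene libraries had 166, 157, 163, 182 and 186 CPM, and single exemestane libraries had 169, 165, 183, 175 and 126 CPM. Vehicle libraries had 112, 112, 109, 139 and 105 CPM. The raloxifene libraries all lay above the vehicle libraries, and ranges did not overlap, in either direction, for 18% of all genes, whereas the exemestane library at 126 CPM (class A) lay below the vehicle library at 139 CPM (class B).

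The log2 fold change of Ptn over vehicle was 0.57 ± 0.12 (SE) in raloxifene rats (edgeR adjusted p = 0.0111). Among all genes, 24.8% were called in that comparison, that is, had an adjusted p under 0.05, and 13.4% were called as higher. In exemestane rats it was 0.50 ± 0.12 (edgeR adjusted p = 0.0394), with 6.51% of genes called and 4.06% called as higher. With class as a term these changes came to 0.17 ± 0.06 for raloxifene (edgeR adjusted p = 0.819) and 0.20 ± 0.06 for exemestane (edgeR adjusted p = 0.5004), and neither passed. With class 0.00694% of all genes were called for raloxifene and 0% for exemestane. With offsets taken from the authors' normalized table instead, Ptn was called in both, at 0.39 for raloxifene (edgeR adjusted p = 0.0137) and 0.36 for exemestane (edgeR adjusted p = 0.0433), where 6.41% of all genes were called for raloxifene and 0.93% for exemestane, while Ncl was not called in either. The raloxifene call was kept in 10 of 10 fits that left out a library. The exemestane call was kept in 2 of 10 such fits, those without exemestane replicate 5 or vehicle replicate 4, although its log2 fold change stayed between 0.46 and 0.60. The exemestane libraries were also used in choosing Ptn.

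Tamoxifen libraries fell into a low pair at 108 and 111 CPM (class A) and a high trio at 176, 166 and 158 CPM (class B). Anastrozole libraries were split in the same way, with 112, 98.1 and 98.7 CPM in class A and 144 and 157 CPM in class B. Neither group passed the test against vehicle as designed, with log2 fold changes of 0.32 ± 0.12 for tamoxifen (edgeR adjusted p = 0.235) and 0.08 ± 0.12 for anastrozole (edgeR adjusted p = 0.9999). With class these were 0.09 ± 0.06 for tamoxifen (edgeR adjusted p = 0.690) and -0.04 ± 0.05 for anastrozole (edgeR adjusted p = 0.923). Sham libraries had 95.05, 106, 106, 108 and 105 CPM. Estradiol libraries had 98.1, 96.3, 100.1, 87.1 and 93.6 CPM, all below every vehicle library. The estradiol change over vehicle was -0.28 ± 0.13 as designed (edgeR adjusted p = 0.508) and -0.17 ± 0.05 with class (edgeR adjusted p = 0.198, with 0.298% of genes called), so the separation did not pass over all genes. Ranges did not overlap for 3.73% of genes in that comparison. Within class A alone, estradiol libraries (87.1 to 100.1 CPM) again lay below vehicle libraries (105 to 112 CPM), with a log2 fold change of -0.20 ± 0.05 (edgeR adjusted p = 0.143). Ranges within class A did not overlap for 4.39% of genes. The estradiol libraries were also used in choosing Ptn, so these values and tests describe the selected level and are not independent of it.

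Across the 35 libraries, Ptn ran from 139 to 186 CPM in class B and from 87.1 to 126 CPM in class A, with no overlap. In the fit with group and class, class B exceeded class A by 0.51 ± 0.04 on the log2 scale (edgeR adjusted p = 4.17e-12). Class B holds 4 of the 5 exemestane libraries and class A all 5 estradiol libraries, which were used in choosing Ptn. Class was also made from these same counts, members included. The class differences and their p-values, for Ptn here and for Ncl, Ptprz1 and Sdc3 below, are therefore descriptions and not independent tests. Over all genes 51.9% were called between the classes, and the ranges of 10.4% did not overlap. In the authors' normalized values the classes lay closer, with Ptn at 1071 to 1352 in class B and 764 to 1078 in class A and Ncl at 1614 to 1829 in class B and 1456 to 1643 in class A, so that both ranges overlapped at their edges. That the classes lay closer there follows in part from how they were made, and what they stand for was not tested. By mean, Ptn ranked raloxifene (171 ± 12.3 CPM), exemestane (164 ± 22.01), tamoxifen (144 ± 32.1), anastrozole (122 ± 26.98), vehicle (115 ± 13.5), sham (104 ± 5.17) and estradiol (95.05 ± 5.03; SD, n = 5 each), and the ranges of all neighbours in this order overlapped. Exemestane replicate 5, the single exemestane library of class A, had the highest Ptn of the 20 libraries of that class.

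**Figure D1:**
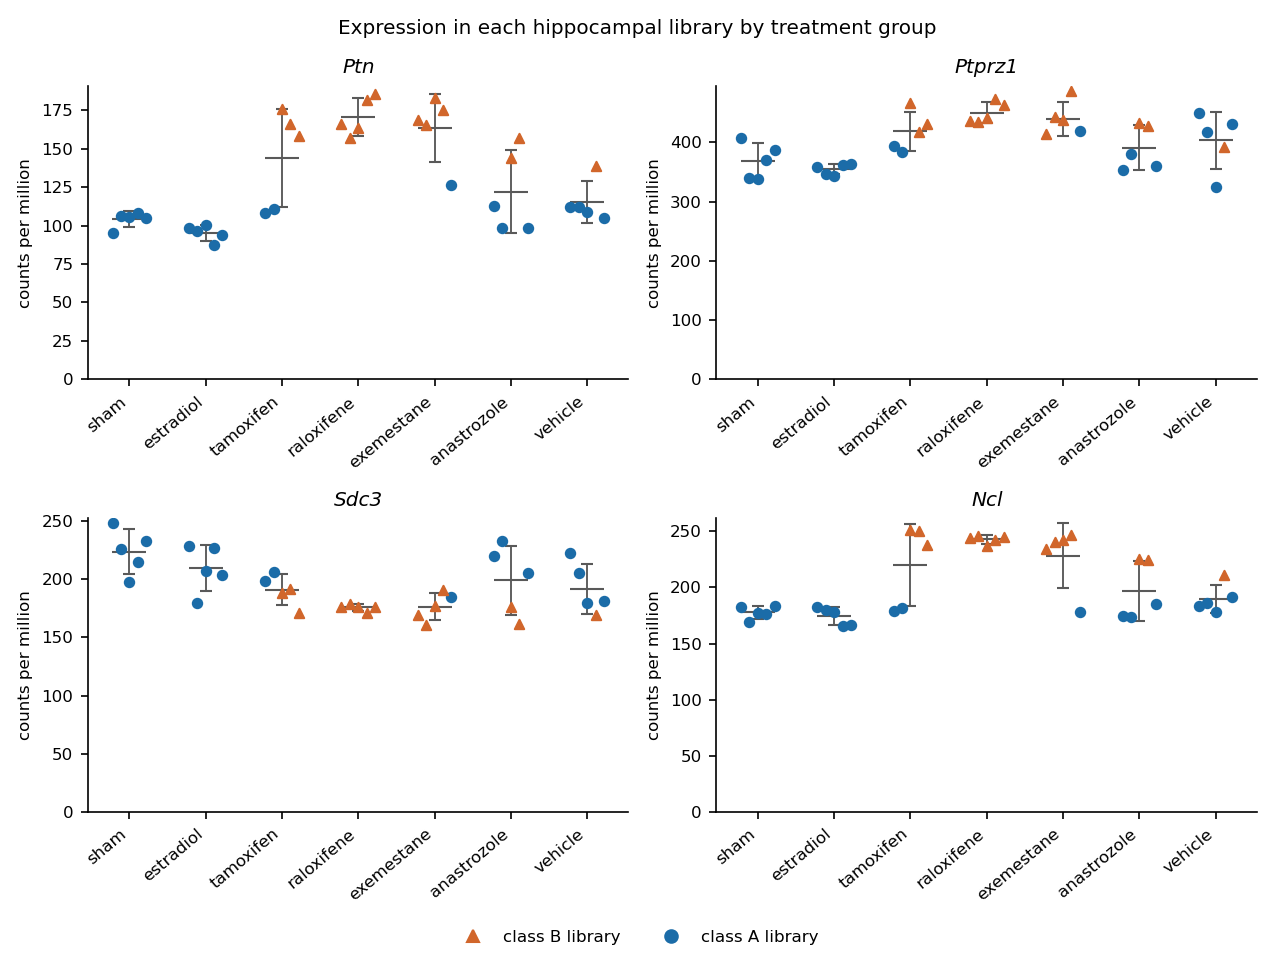
CPM of Ptn, Ptprz1, Sdc3 and Ncl (vertical axes, each from 0) in every library of the 7 groups; triangles are class B and circles class A libraries, and grey bars are the mean and SD of 5 libraries. Class B libraries of Ptn sit between 139 and 186 CPM and class A libraries between 87.1 and 126 CPM, whatever the group, and Ncl also separates on the CPM scale.

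Ncl showed the same split between library classes as Ptn. Raloxifene libraries had 244, 246, 237, 242 and 245 CPM. Vehicle libraries had 183, 186, 179, 211 and 191 CPM, all below the raloxifene libraries, where the ranges of 18% of all genes did not overlap. The log2 fold change was 0.35 ± 0.09 as designed (edgeR adjusted p = 0.0128) and 0.06 ± 0.05 with class (edgeR adjusted p = 0.966). Ptn and Ncl were the 2 of 6 members called under raloxifene, where 24.8% of all genes were called. With class no member was called there, and 1 member (Ptn) had an unadjusted p under 0.05.

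Ncl in exemestane libraries was 234, 241, 242 and 247 CPM in class B and 178 CPM in class A. Its change over vehicle was 0.27 ± 0.09 (edgeR adjusted p = 0.0586) as designed and 0.04 ± 0.04 with class (edgeR adjusted p = 0.918). Tamoxifen libraries had 179 and 181 CPM in class A and 251, 250.5 and 238 CPM in class B. The lowest class B library of Ncl was a vehicle library at 211 CPM and the highest class A library was also one of vehicle, at 191 CPM. Class B exceeded class A by 0.37 ± 0.03 on the log2 scale (edgeR adjusted p = 1.15e-11), with no overlap. Between the classes 51.9% of all genes were called and the ranges of 10.4% did not overlap. Sham libraries ran from 169 to 184 CPM and estradiol libraries from 166 to 182 CPM, both ranges within class A.

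Ptprz1, the receptor phosphatase, was lowest in mean in estradiol rats and passed no test against vehicle with all libraries. Estradiol libraries had 359, 347, 344, 362 and 363 CPM. Vehicle libraries had 449, 418, 325, 393 and 431 CPM and spread more widely than any other group (403 ± 48.2 CPM, SD, n = 5). The lowest vehicle library, at 325 CPM, was among the 2 vehicle libraries with Ttr above 100 CPM, and it lay below all 5 estradiol libraries. The log2 fold change was -0.18 ± 0.07 as designed (edgeR adjusted p = 0.448) and -0.16 ± 0.06 with class (edgeR adjusted p = 0.342).

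In the 20 libraries with Ttr at or below 100 CPM, Ptprz1 stood at 344 to 363 CPM in 4 estradiol libraries, against 418 to 449 CPM in 3 vehicle libraries. These ranges did not overlap, as was the case for 13.3% of all genes between these libraries. In that subset, with class as a term, the change was -0.27 ± 0.05 (edgeR adjusted p = 0.0040), and 1.07% of genes were called. It passed in 7 of 7 fits that left out an estradiol or vehicle library, with log2 fold changes from -0.30 to -0.25. Without the class term the same subset gave -0.27 ± 0.07 (edgeR adjusted p = 0.673), so the call was made only with both choices, and their combination was chosen after the data were seen. The fitted changes of the other 5 groups in that fit ran from -0.23 in anastrozole to -0.07 in exemestane, and none passed. The observed means did not all lie lower, at 448 CPM in exemestane and 446 CPM in raloxifene against 433 CPM in vehicle, and all 3 vehicle libraries of the subset are of class A, so those 2 negative signs rest on the class term. In that fit Ptprz1 was not called for tamoxifen or raloxifene over estradiol, and sham and exemestane were not tested against estradiol. The calls for tamoxifen and raloxifene over estradiol with all libraries are given below.

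Against vehicle, Ptprz1 in raloxifene libraries (437, 434, 442, 474 and 463 CPM) gave 0.16 ± 0.07 as designed (edgeR adjusted p = 0.105) and 0.05 ± 0.08 with class (edgeR adjusted p = 0.989). Exemestane libraries (414, 442, 437, 487 and 419.6 CPM) gave 0.13 ± 0.07 as designed (edgeR adjusted p = 0.233) and 0.04 ± 0.07 with class (edgeR adjusted p = 0.946). Tamoxifen libraries ran from 384 to 467 CPM, anastrozole libraries from 354 to 433 CPM and sham libraries from 338 to 408 CPM, and their ranges all overlapped vehicle. Class B exceeded class A by 0.13 ± 0.05 (edgeR adjusted p = 0.0265), with overlapping ranges of 393 to 487 CPM in class B and 325 to 449 CPM in class A.

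Sdc3, the neuronal heparan sulphate proteoglycan, ran opposite to Ptn across the classes and was not called against vehicle in any group. Raloxifene libraries were narrow at 176, 179, 176, 171 and 176 CPM. Vehicle libraries had 223, 205, 179.7, 169.5 and 182 CPM, 4 of them above the raloxifene range and 1 below it. Its change under raloxifene was -0.12 ± 0.08 as designed (edgeR adjusted p = 0.271) and 0.05 ± 0.08 with class (edgeR adjusted p = 0.989). The highest mean was in sham rats, with libraries at 248, 226, 197, 215 and 233 CPM, and sham exceeded vehicle by 0.22 ± 0.08 (edgeR adjusted p = 0.567). Class B lay below class A by a log2 difference of -0.22 ± 0.05 (edgeR adjusted p = 0.000769), with 161 to 192 CPM in class B and 179.7 to 248 CPM in class A.

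Alk, the receptor kinase, had 56 to 261 counts per library and was not called against vehicle in any group. Sham libraries had 23.3, 9.71, 12.1, 11.8 and 12.2 CPM. The value of 23.3 CPM is in sham replicate 1, the library with high thalamus and habenula markers, and no other library of any group exceeded 14.6 CPM. Vehicle libraries had 14.5, 12.7, 10.8, 7.53 and 11.8 CPM. Sham exceeded vehicle by 0.28 ± 0.16 with all libraries (edgeR adjusted p = 0.813), and by 0.00 without sham replicate 1. The part of the thalamus and habenula signal in that Alk level was not tested. In the libraries with Ttr at or below 100 CPM, Alk was called for raloxifene over estradiol at -0.48 ± 0.12 (edgeR adjusted p = 0.00543), where 36.3% of genes were called, but with class added it was -0.40 ± 0.17 (edgeR adjusted p = 0.577). Raloxifene had the lowest mean (10.6 ± 1.08 CPM, SD, n = 5), and its change over vehicle was -0.11 ± 0.16 (edgeR adjusted p = 0.631).

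**Figure D2:**
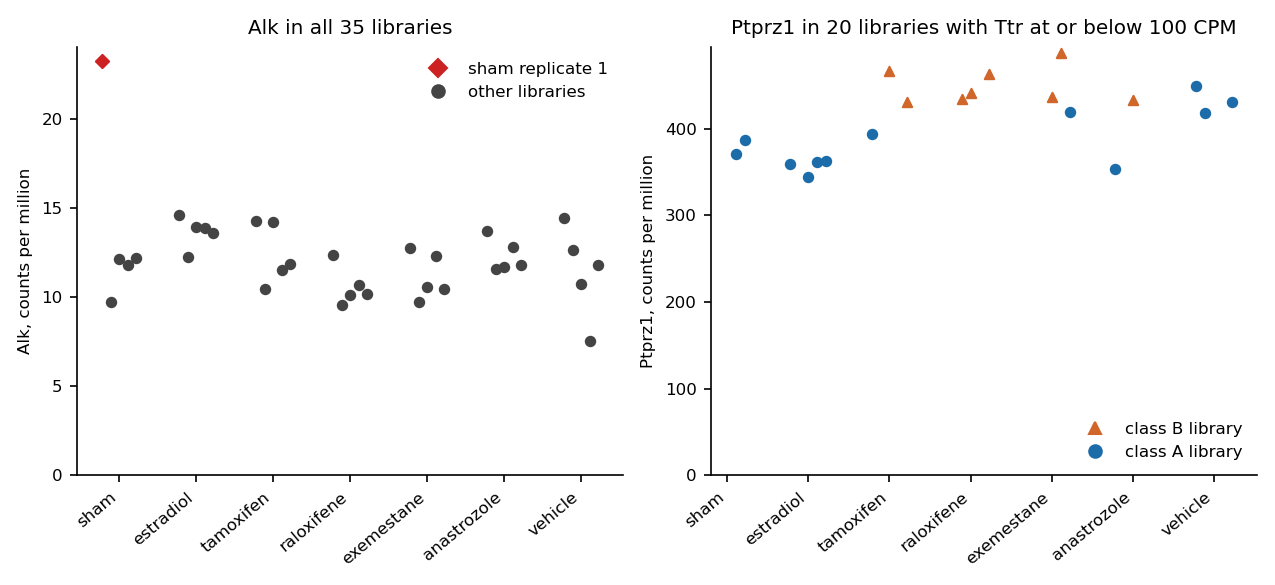
Left, Alk in CPM in all 35 libraries, with sham replicate 1 drawn as a red diamond at 23.3 CPM and every other library at or below 14.6 CPM. Right, Ptprz1 in CPM in the 20 libraries with Ttr at or below 100 CPM, where 4 estradiol libraries (344 to 363 CPM) sit below 3 vehicle libraries (418 to 449 CPM); triangles are class B and circles class A.

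Mdk varied more between libraries than the other 5 members did, and its level separated libraries by Ttr, which every treatment group held in both ranges. The 15 libraries with Ttr above 100 CPM had 26.95 to 63.5 CPM of Mdk with a median of 48.3 CPM. The 20 other libraries had 6.02 to 10.7 CPM with a median of 7.31 CPM. The ranges did not overlap, as for 0.659% of all genes, and the medians differed by 6.61 times. Ttr itself was 832 to 2767 CPM in the first set and 0.496 to 65.8 CPM in the second. Both sets held libraries of every group, for example sham at 30.5, 50.3 and 26.95 CPM against 7.27 and 8.00 CPM, and exemestane at 48.5 and 45.2 CPM against 7.35, 6.02 and 6.28 CPM.

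Within the 15 libraries of high Ttr, log2 Mdk and log2 Ttr correlated with Pearson r = 0.928 (permutation p = 2e-05, the smallest that the permutations can give) and Spearman rho = 0.893 (permutation p = 4e-05), and r was 0.908 without the 2 libraries farthest from the median. Within the 20 others, r was 0.692 (permutation p = 0.0011) and rho 0.762 (permutation p = 0.00022), with r = 0.62 without 2. The Benjamini-Hochberg adjusted p of r over these 2 relations was 4e-05 and 0.0011. Of the 10 listed choroid plexus markers 9 were in the table and 5 of these were at 0 in some library, Sostdc1 in as many as 10. Their summed level ran from 71.1 to 2578 CPM in sham, 65.9 to 3075 in estradiol, 85.9 to 3875 in tamoxifen, 76.8 to 3034 in raloxifene, 72.5 to 2799 in exemestane, 85.5 to 3613 in anastrozole and 94.4 to 4118 in vehicle libraries. Enpp2 had at least 432 counts in every library, while Ttr fell to 5 counts and the other markers to between 0 and 2. The low end of these sums is therefore not a level shared by the 9 markers. The source of Mdk in these libraries was not tested.

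With all libraries, the Mdk change over vehicle ranged from -0.85 ± 0.91 in estradiol (edgeR adjusted p = 0.761) to 0.31 ± 0.84 in anastrozole, and the intervals were wide. For estradiol the 95% interval ran from -2.70 to 1.01. In the libraries of low Ttr, Mdk was 6.27 to 7.74 CPM in 4 estradiol libraries, against 8.57 to 10.5 CPM in 3 vehicle libraries, without overlap, which held for 13.3% of all genes between these libraries. The change there was -0.44 ± 0.15 for estradiol (edgeR adjusted p = 0.724), -0.47 ± 0.15 for tamoxifen (edgeR adjusted p = 0.153), -0.43 ± 0.15 for raloxifene (edgeR adjusted p = 0.0626) and -0.52 ± 0.16 for exemestane (edgeR adjusted p = 0.183). Anastrozole gave -0.00 ± 0.17 and sham -0.31 ± 0.17, and none of these passed the threshold. These comparisons share the same 3 vehicle libraries.

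**Figure D3:**
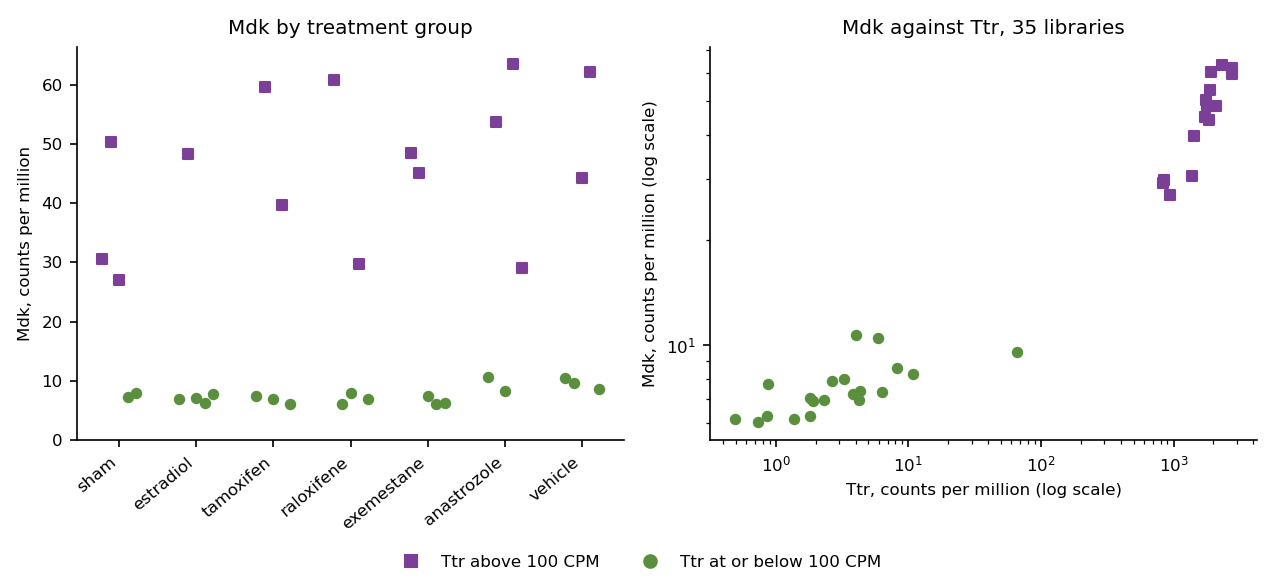
Left, Mdk in CPM by treatment group; squares are the 15 libraries with Ttr above 100 CPM and circles the 20 others, and every group holds both. Right, Mdk against Ttr in the 35 libraries on logarithmic axes; the squares sit at 26.95 to 63.5 CPM of Mdk and the circles at 6.02 to 10.7 CPM.

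Besides the 6 comparisons with vehicle, 5 other pairs of groups were compared, and the remaining pairs were not tested. For raloxifene over estradiol, 4 of the 6 members were called, where 44.6% of all genes were called. Ptn rose by 0.85 ± 0.13 (edgeR adjusted p = 0.000149), Ncl by 0.48 ± 0.09 (edgeR adjusted p = 0.000382) and Ptprz1 by 0.34 ± 0.07 (edgeR adjusted p = 0.000683), while the Sdc3 change was -0.25 ± 0.08 (edgeR adjusted p = 0.0153). All raloxifene libraries are of class B and all estradiol libraries of class A, and with class none of the 4 passed (0% of all genes did), Ptn at 0.34 ± 0.07 (edgeR adjusted p = 0.106) coming nearest. For tamoxifen over estradiol, 3 members were called, with 14.2% of genes called and 9.65% called as higher: Ptn at 0.60 ± 0.13 (edgeR adjusted p = 0.0227), Ncl at 0.33 ± 0.09 (edgeR adjusted p = 0.0262) and Ptprz1 at 0.24 ± 0.07 (edgeR adjusted p = 0.0337). With class these were 0.27 ± 0.06, 0.10 ± 0.04 and 0.16 ± 0.07, and none passed, nor did any other gene (0%). Leaving out a library kept the tamoxifen calls in 5 of 10 fits for Ptn, 4 of 10 for Ncl and 2 of 10 for Ptprz1. Both comparisons share the estradiol libraries, which were also used in choosing Ptn.

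No member was called in either comparison within a drug class. Between the receptor modulators, Ptn differed for tamoxifen over raloxifene by -0.25 ± 0.12 (edgeR adjusted p = 0.584; 95% interval from -0.50 to 0.00), and by -0.07 ± 0.05 with class. Between the aromatase inhibitors, Ptn for exemestane over anastrozole was 0.42 ± 0.12 (edgeR adjusted p = 0.0901; 95% interval from 0.17 to 0.67) and 0.23 ± 0.05 with class (edgeR adjusted p = 0.0799). Doses differed within both pairs. The exemestane libraries were used in choosing Ptn, so its values for exemestane over anastrozole, in this and every other fit, are not independent of that choice. The share of all genes called was 0% in both comparisons. Without anastrozole replicate 4, Ptn, Ncl and Sdc3 were called for exemestane over anastrozole, as were 18.6% of all genes. No member was called for anastrozole over estradiol, with 0.00694% of genes called, and none for sham, estradiol, tamoxifen or anastrozole over vehicle, with 0%, 0.00694%, 0% and 0% of genes called. At an unadjusted p under 0.05 there were 4 members for exemestane over anastrozole, 2 for estradiol and 2 for tamoxifen over vehicle, 1 for sham over vehicle, 1 for anastrozole over estradiol and 0 in the remaining comparisons without a call. The share of all genes under that unadjusted threshold is not given here, so no such count in this text is read as an excess. For exemestane over anastrozole it was met by 8 of 26 binding partners, 6 of 22 signalling genes and 9 of 35 glycosaminoglycan genes of the lists below. DESeq2 called 1 member, Ptn, for exemestane over anastrozole, with 4.33% of the genes to which it gave an adjusted p called, and none in the other 6 of these comparisons.

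**Figure D4:**
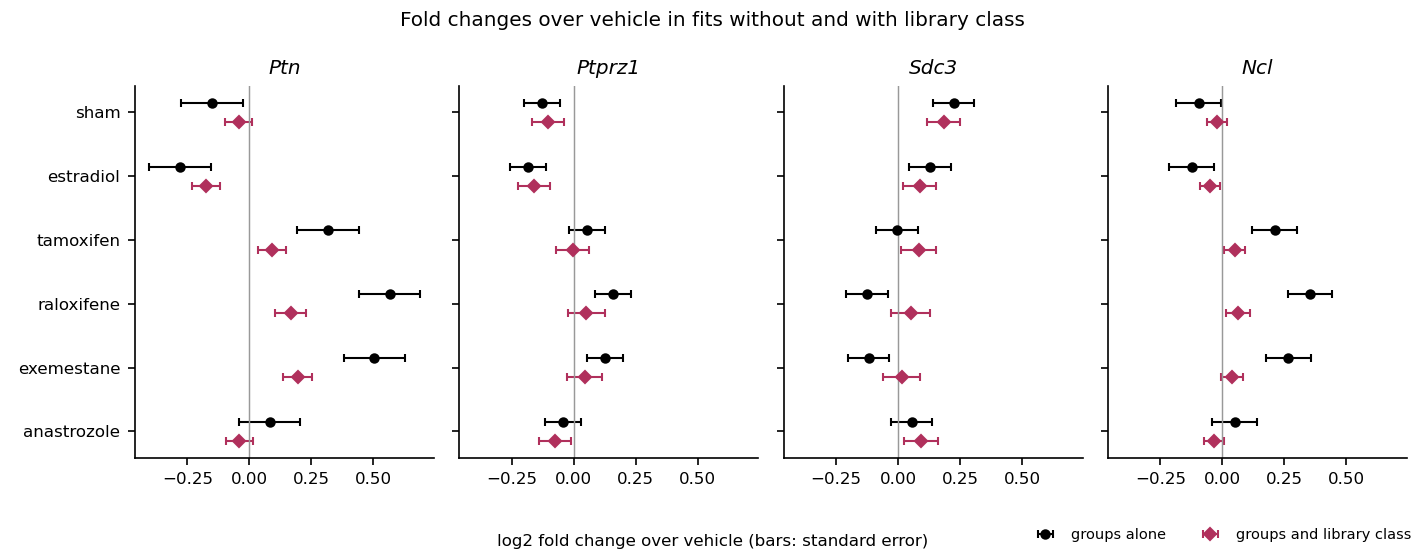
Log2 fold change over vehicle (horizontal axis, bars are standard errors) of Ptn, Ptprz1, Sdc3 and Ncl for the 6 other groups, fitted on the groups alone (black circles) and on group and library class (red diamonds). Ptn under raloxifene is 0.57 with groups alone and 0.17 with class, and Ncl is 0.35 and 0.06.

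As a description of the pair by which the genes were chosen, Ptn averaged 164 ± 22.01 CPM in exemestane rats and 95.05 ± 5.03 CPM in estradiol rats (SD, n = 5 each), a ratio of 1.72. Within class A the single exemestane library had 126 CPM and the ratio was 1.33. Ratios of exemestane to estradiol means were 1.48 for Mdk, 1.31 for Ncl, 1.24 for Ptprz1, 0.843 for Sdc3 and 0.819 for Alk. Ranges of the groups overlapped for Mdk, Ncl, Sdc3 and Alk and not for Ptn and Ptprz1, where the ranges of 15.2% of all genes did not overlap. Within class A the Ncl ratio was 1.02.

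Further genes of the pathway were read from 3 lists. Of 26 tested binding partners and coreceptors, 5 were higher and 3 lower under raloxifene than under vehicle, where 13.4% of all genes were higher and 11.4% lower (24.8% in all), so the share of this list called is near that of all genes. Npm1 (nucleophosmin), a nucleolar protein, averaged 119 ± 7.40 CPM in raloxifene rats and 85.1 ± 10.6 CPM in vehicle rats (SD, n = 5 each), and rose by 0.48 ± 0.13 (edgeR adjusted p = 0.0138). Lrp1, an endocytic receptor that binds midkine, averaged 1198 ± 56.1 CPM in raloxifene rats and 1529.9 ± 113 CPM in vehicle rats (SD, n = 5 each), and its change was -0.35 ± 0.09 (edgeR adjusted p = 0.0137). Ptprs, a receptor phosphatase for chondroitin and heparan sulphate, changed by -0.30 ± 0.10 and the glypican Gpc1 by -0.39 ± 0.11. The median over the list was -0.01, against -0.02 over all genes. Under exemestane none of the 26 were called, with 9 at an unadjusted p under 0.05.

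Among 22 signalling genes below the receptors, 3 were higher and 4 lower under raloxifene than under vehicle, with a median of -0.08, against 24.8% of all genes called and a median of -0.02. Akt1, a kinase of the pathway that promotes cell survival, changed by -0.31 ± 0.09 under raloxifene (edgeR adjusted p = 0.0164). The Akt1 change was also the single signalling call under exemestane, at -0.28 ± 0.09 (edgeR adjusted p = 0.0485). Among 35 genes that build glycosaminoglycan chains, 1 was higher and 8 lower under raloxifene, with a median of -0.12. The total called is again near the 24.8% of all genes, while 11.4% of all genes were called as lower. The chondroitin chain factor Chpf averaged 71.1 ± 3.45 CPM in raloxifene rats and 97.7 ± 13.1 CPM in vehicle rats (SD, n = 5 each) and changed by -0.46 ± 0.12 (edgeR adjusted p = 0.0133). The heparan sulphate sulphotransferase Ndst2 changed by -0.51 ± 0.13 (edgeR adjusted p = 0.0124).

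With class as a term none of these list genes passed against vehicle in any group, and Npm1 was then at 0.05 ± 0.06, Lrp1 at -0.05 ± 0.05, Akt1 at -0.03 ± 0.05 and Chpf at -0.05 ± 0.06 under raloxifene. Ndst2 was at -0.42 ± 0.14 with class and no longer passed (edgeR adjusted p = 0.772). The list gene that passed with class in the 11 comparisons was Chpf for exemestane over anastrozole, at -0.28 ± 0.05 (edgeR adjusted p = 0.0241), 1 of 4 genes (0.0278%) called there.

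Astrocyte markers, which mark cells that make Ptprz1 and Ptn, summed to 4873 to 5475 CPM in raloxifene libraries and 4998 to 6023 CPM in vehicle libraries. Of the 12 markers, 1 was called as higher and 2 as lower under raloxifene, against 13.4% and 11.4% of all genes. None of these calls was kept with class. Oligodendrocyte precursor markers summed to 518 to 552 CPM in raloxifene libraries and 558 to 629 CPM in vehicle libraries, without overlap, and to 494 to 572 CPM in class B and 534 to 629 CPM in class A. Between raloxifene and vehicle the ranges of 18% of all genes did not overlap. Of single precursor markers only Sox10 was called, at -0.47 ± 0.12 under raloxifene (edgeR adjusted p = 0.0115) and -0.46 ± 0.12 under exemestane (edgeR adjusted p = 0.0394). Neither Sox10 call was kept with class. Markers of myelinating oligodendrocytes summed to 5250 to 6225 CPM in raloxifene libraries, 4913 to 6711 CPM in exemestane libraries and 5413 to 5771 CPM in estradiol libraries, against 6251 to 7715 CPM in vehicle libraries. The raloxifene and estradiol ranges lay below vehicle, where the ranges of 18% and 3.73% of all genes did not overlap. Of the 10 markers, 4 were called as lower under raloxifene, 4 under exemestane and 0 under estradiol, where 7 had an unadjusted p under 0.05. Over all genes, 11.4%, 2.45% and 0% were called as lower in these comparisons. With class none of those raloxifene and exemestane calls was kept. The marker Cnp was then called as lower under estradiol, at -0.43 ± 0.10 (edgeR adjusted p = 0.0425), where 0.298% of all genes were called. Hippocampal neuron markers summed to 2874 to 3175 CPM in raloxifene libraries and 3226 to 3689 CPM in vehicle libraries, again without overlap, as for 18% of all genes. They summed to 2787 to 3256 CPM in class B and 1954 to 3908 CPM in class A. Under raloxifene 2 of 11 were called as higher and 2 as lower, against 13.4% and 11.4% of all genes, and with class none was called. The 2 lower were Camk2a (mean 1043 against 1348 CPM in vehicle) and Neurod2 (43.8 against 59.1 CPM). The 2 higher were Neurod6 (138 against 102 CPM) and Calb1 (75.7 against 53.9 CPM). The sum weighs abundant markers most, so its lower range is not a change shared by the list. All 12 astrocyte markers, 8 of 9 precursor markers and all 10 myelin markers were tested and none was at 0 in any library. The part of these cell types in the changes of Ptn, Ncl and Ptprz1 was not tested.

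Genes whose pattern was most like that of Ptn were sought among 9090 genes with at least 10 CPM, as the root mean square difference of centred log2 CPM over the 35 libraries. The nearest were Atrx (0.0876), Dynlt3 (0.0876), Smc6 (0.0907), Ranbp2 (0.0934) and Zmym2 (0.0977), where the own spread of Ptn was 0.3496 and Ncl stood at 0.158. Atrx is a chromatin remodeller, Smc6 a subunit of a chromosome maintenance complex and Ranbp2 a nucleoporin. All 5 were higher in every class B library than in any class A library, for example Atrx at 340 to 435 CPM in class B and 244 to 283 CPM in class A. This follows from their choice by likeness to Ptn, which itself separates the classes. Between the classes the ranges of 10.4% of all genes did not overlap. After centring within class, the nearest were Atrx (0.0830), Csnk1a1 (0.0836), Hmgcs1 (0.0857), Mia3 (0.0862) and Dynlt3 (0.0876), where the own spread of Ptn was 0.117. Among the members Ncl was then at 0.0985 and Ptprz1 at 0.119.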

How the data were processed

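Hippocampal RNA of 35 rats in 7 groups of 5 was sequenced from stranded poly(A) libraries as paired-end reads, per the labels' protocols. The authors quantified reads with Salmon and normalized with DESeq2, per the submitters' processing notes, and deposited a table of unnormalized expected counts (whole numbers) and a table of normalized signal. Build, annotation and versions are not given in the sources used here. Columns were matched to libraries by title, and no column was left out.

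All 35 libraries entered 1 fit of the 7 groups in edgeR 4.0.16 (R 4.3.3). Genes were filtered by filterByExpr with the groups, libraries were scaled by TMM, and the quasi-likelihood F-test was run in its robust form. Benjamini-Hochberg adjustment was over 14411 genes, with a threshold of 0.05. Standard errors came from the fold change and its F statistic, and intervals have 95% confidence. The steps were tested on simulated data. Replicates are separate libraries, and the labels do not say how animals were housed or processed, so p-values measure the spread between these samples. The common biological coefficient of variation was 0.152.

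Library class is the sign of the leading component of the gene-centred log ratio of the 2 deposited tables (72.3% of variance over 14326 genes, against 1.69% for the next). Alternatives were class as a term, each class alone, DESeq2 1.42.0 with its own size factors, RLE factors, no filter, the authors' per-gene factors (the ratio of the deposited tables) as offsets, only the libraries of the 2 groups compared, leaving out libraries, and leaving out libraries with Ttr above 100 CPM. The last with class was added after the data were seen. Correlations used permutation tests in SciPy 1.17.1.

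The members and the lists were chosen with earlier results of these data known. Named genes were all members, up to 4 called genes of smallest p per pathway list and comparison, and the 5 genes nearest to Ptn by root mean square difference over all libraries and within class. 1 gene of the signalling list that this rule names is not reported here. Motifs were searched on both strands of RefSeq promoters, with matches by gene symbol.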

Additional observations from a re-analysis of the deposited data

Results flagged for a closer look

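In each group of 5 libraries the highest or lowest value of each member was compared with its nearest neighbour by Dixon's criterion. Of 42 groups of values tested, 5 were marked, and chance marks about 1 group in 20. Ptn in sham replicate 1 was the lowest of its group at 95.05 CPM, with the other sham libraries at 105 to 108 CPM. That library also stands apart in Alk, which was the highest of its group at 23.3 CPM against 9.71 to 12.2 CPM, and in its thalamus and habenula markers. Ptn in vehicle replicate 4 was the highest of its group at 139 CPM, against 105 to 112 CPM in the other vehicle libraries, and it is the single vehicle library of class B. Ncl in exemestane replicate 5 was the lowest of its group at 178 CPM, against 234 to 247 CPM, and it is the single exemestane library of class A. Mdk in estradiol replicate 2 was the highest of its group at 48.3 CPM, against 6.27 to 7.74 CPM, and it is the single estradiol library with Ttr above 100 CPM.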

How the results depend on the processing

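No paired analysis was possible because the library titles carry no replicate numbers shared between groups. With library class as a term, the number of members called was 0 for raloxifene and for exemestane over vehicle and 0 for raloxifene and for tamoxifen over estradiol, against 2, 1, 4 and 3 as designed. Without libraries of Ttr above 100 CPM and with class it was also 0 in these 4 comparisons, and it was 1 (Ptprz1) for estradiol over vehicle, against 0 as designed. Without those libraries but with no class term, exemestane over vehicle gave 0. With the authors' per-gene factors the counts were 1 (Ptn) for raloxifene over vehicle, 2 (Ptn and Ncl) for raloxifene over estradiol (21.8% of all genes called) and 1 (Ptn) for tamoxifen over estradiol (1.61%). Within class A alone exemestane over vehicle gave 0 and tamoxifen over estradiol 0, and within class B alone raloxifene and exemestane over vehicle gave 0 each. Class A holds 1 exemestane library and class B 1 vehicle library, so 3 of these 4 fits have an arm of 1 library, assumed to vary like the other groups. With only the 2 groups compared, exemestane over vehicle and tamoxifen over estradiol gave 0 each. DESeq2 called 2 members (Ptn and Ncl) for exemestane over vehicle (15.8% of genes called) and 1 (Ptn) for exemestane over anastrozole. Leaving out a library, with or without class, gave 0 to 4 members for raloxifene over estradiol, 0 to 2 for raloxifene over vehicle, 0 to 2 for exemestane over vehicle, 0 to 3 for tamoxifen over estradiol and 0 to 3 for exemestane over anastrozole. The log2 fold change of Ncl for raloxifene over vehicle, 0.35 as designed, was -0.045 without libraries of high Ttr and with class, and -0.0049 with class and without vehicle replicate 4. The cause of these changes was not tested. RLE factors and no filter kept each count within 1.5 times of that as designed. Class and group overlap, raloxifene having no class A library and sham and estradiol no class B library, so the fits with class rest on the tamoxifen, exemestane, anastrozole and vehicle groups. Alk and low Mdk rest on fewer counts than the other members, which limits their precision.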
